A study of Mus musculus with 8 samples.

Results

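The genes described here are 10 components of the Nodal and bone morphogenetic protein (BMP) pathways in mouse embryonic stem cells: the ligands Nodal and Bmp4, the co-receptor Tdgf1, the antagonists Lefty1 and Lefty2, the inhibitory Smads Smad6 and Smad7, and the targets Id1, Id2 and Id3. They were taken by name, from a list written with earlier results of these data known. Out of 34958 probe sets with a single gene symbol, 14 carried 1 of these names. All 10 genes passed the filter on dim probe sets, among 14267 genes tested of 18194 named. The arrays measured RNA from 4 groups of 2 samples, which the labels call biological replicates. In the shTop1 coculture and the shp53 coculture, cells carrying a short hairpin RNA against Top1 or p53 grew for 4 days in the same dish as mock cells, at 1 part knockdown cells to 4 parts mock cells. For the shTop1 mix and the shp53 mix, which the titles call controls, knockdown and mock cells grew apart for 4 days and their RNA was then combined at the same 1 to 4. All groups share the mock cells, the 129X1 x 129S1 strain and standard stem cell culture. Knockdown cells contributed 20% of each mix, while the share of knockdown cells in the cocultures after 4 days is not given in the labels. The labels do not say how many clones made up a knockdown line or whether replicates came from separate cultures, so p-values here take in no more than the spread among these samples, and that spread may be technical.

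Nodal and the BMPs are secreted ligands of the transforming growth factor beta family. Nodal binds activin receptors together with the co-receptor encoded by Tdgf1 (Cripto) and signals through Smad2 and Smad3, whereas BMPs signal through Smad1, Smad5 and Smad9. Both branches switch on their own inhibitors: Nodal induces the Lefty genes, which encode secreted antagonists of Nodal, and BMP induces Smad6, which blocks the BMP branch from inside the cell. In mouse embryonic stem cells BMP4 is known to sustain self-renewal together with leukaemia inhibitory factor, in part through the Id genes, which encode proteins that hold back differentiation-promoting helix-loop-helix factors.

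Mean signal per array ranged from 812 to 896. On a principal component analysis of all genes tested, shTop1 coculture replicate 1 stood apart from the other arrays on the second component. On the first component it lay at -2.9, beside the mixes at -21.1 to -5.1, while shTop1 coculture replicate 2 lay farthest from them at 26.1. Values without 1 of these 2 arrays are given below for some members. Of 9 listed embryonic stem cell markers 8 passed the filter, including Pou5f1, Nanog and Sox2, with a summed signal of 83683 to 110720 in the cocultures and 90486 to 99082 in the mixes. Primed epiblast, fibroblast, primitive endoderm and trophectoderm marker sums did not overlap between cocultures and mixes, while mesoderm and neural sums did. Mesoderm sums ran from 390 to 554 in the cocultures and from 431 to 503 in the mixes. Neural sums ran from 362 to 485 in the cocultures and from 377 to 509 in the mixes. All 7 primed epiblast markers lay below 0, with a summed signal of 12731 to 13883 in the cocultures against 14857 to 15713 in the mixes. Of 9 fibroblast markers 5 passed the filter and all of these lay above 0, with a summed signal of 625 to 784 in the cocultures against 480 to 597 in the mixes, while Col3a1, Postn, Dcn and Lum were below the filter. Primitive endoderm markers, 8 of 8 above 0, summed to 25877 to 28349 in the cocultures against 24232 to 25845 in the mixes. Trophectoderm markers, 4 of 6 tested and 3 of these above 0, summed to 7521 to 8232 against 6529 to 7401. Over all genes tested 55.3% lay above 0 and 44.7% below. At an unadjusted limma p under 0.05 stood 6 primed epiblast, 1 embryonic stem cell and 1 neural marker, lower, and 2 fibroblast markers, higher. The primitive endoderm, trophectoderm and mesoderm lists had 0, against 7.09% of all genes higher and 4.63% lower. The part of these cells in the results below was not tested, and in bulk RNA fewer cells of a type cannot be told apart from less RNA per cell. Top1, the gene one hairpin targets, had a log2 difference of -0.11 ± 0.07 (SE) between the shTop1 and the shp53 samples (limma adjusted p = 0.999).

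In coculture, Smad6 was the 1 member whose 4 coculture arrays all lay above the 4 mixes, at 1.40 times the mixes, and 8 of the 10 members, Nodal and both Lefty genes among them, had a negative difference. None of the 10 passed limma's test over all genes in the mean coculture comparison (adjusted p from 0.345 to 0.925), nor did any of the 14267 genes (smallest adjusted p = 0.279, background 0%). The median log2 difference of the 10 members, coculture minus mix, was -0.15, beside 0.02 over all genes tested, and 44.7% of all genes had a negative difference. At an unadjusted p under 0.05 stood Smad6, higher, and Lefty1, lower, against 7.09% of all genes higher and 4.63% lower. Arrays did not overlap, coculture above mix, for 1 member of 10 (background 5.75%), and coculture below mix for 0 of 10 (background 3.35%). Leaving out 1 array, 6 to 8 members lay below 0, with 8 without shTop1 coculture replicate 1 and 6 without shTop1 coculture replicate 2. The summed primed epiblast markers given above were lower in every coculture array than in every mix, and their part in the members' values was not tested. These differences were taken after quantile normalization, as log2 of the signal plus a pseudocount of 16.

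**Figure D1:**
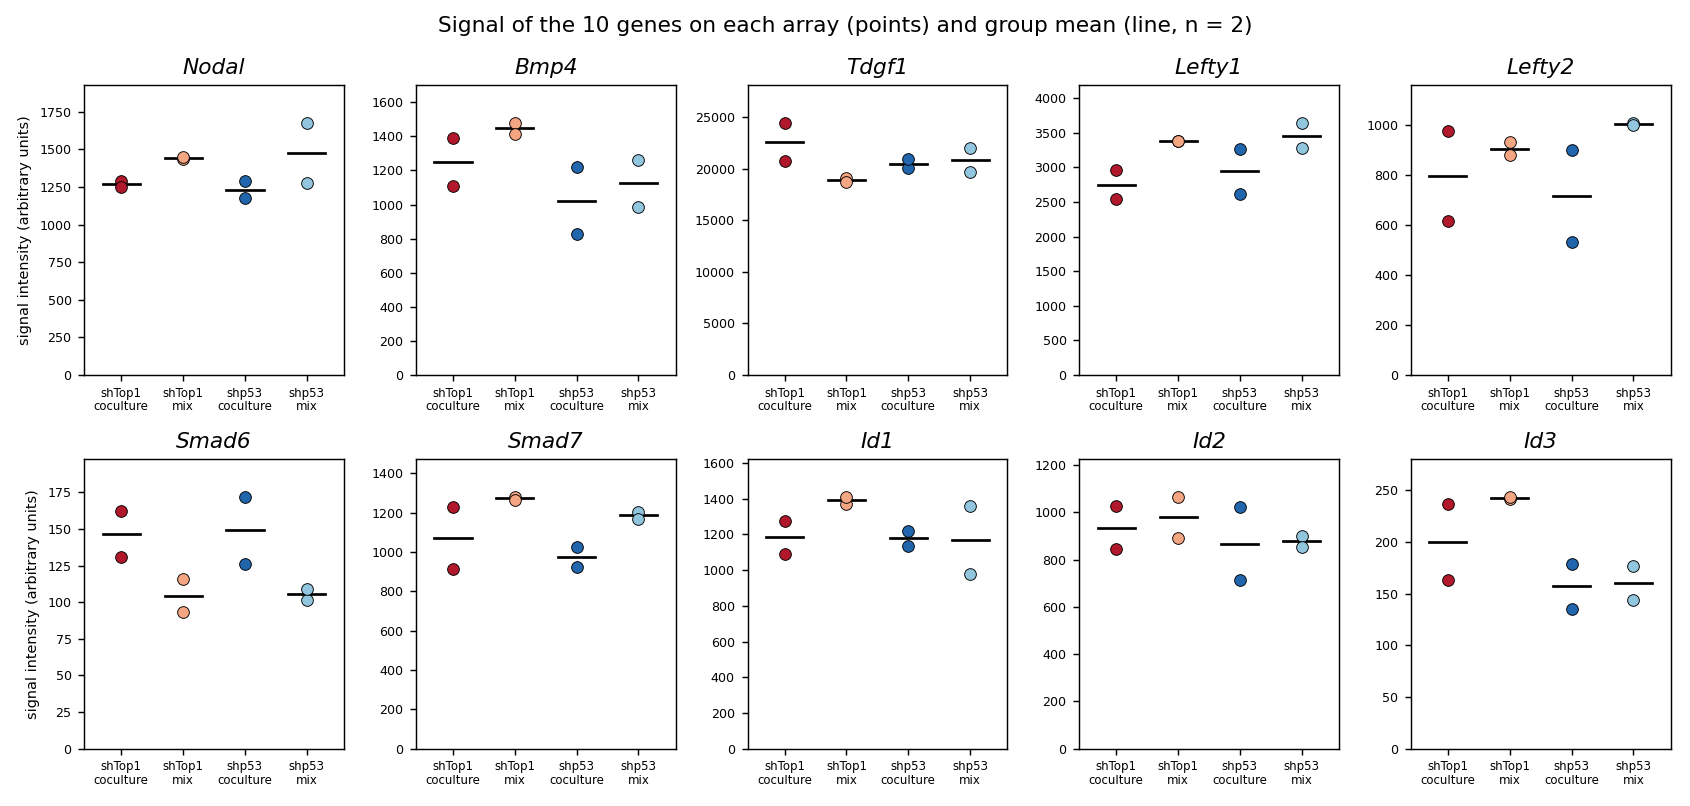
Deposited signal intensity (vertical axes, arbitrary units, starting at 0) of the brightest probe set of each gene on the 8 arrays, by group, with a line at the group mean (n = 2). Smad6 lies between 126 and 172 in the 4 cocultures and between 93.3 and 116 in the 4 mixes, while the 2 arrays of a coculture often differ as widely as the groups, as for Lefty2 and Bmp4.

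Nodal, the ligand that opens the pathway, had signals of 1289 and 1249 in the shTop1 coculture against 1435 and 1448 in the shTop1 mix. In the shp53 samples it had 1175 and 1290 in the coculture against 1677 and 1277 in the mix. The cocultures were tight and low, and 1 shp53 mix array lay among them. The mean log2 difference, coculture minus mix, was -0.21 ± 0.11 (SE, limma adjusted p = 0.508), and it was -0.10 without shp53 mix replicate 1 and -0.32 without shp53 mix replicate 2. A second, dimmer Nodal probe set gave -0.10 ± 0.17 (SE, limma adjusted p = 0.847 over all probe sets), with signals of 298 to 361 in the cocultures inside the range of 282 to 429 in the mixes.

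Bmp4, the ligand of the other branch, had signals of 1108 and 1393 in the shTop1 coculture against 1480 and 1415 in the shTop1 mix, and 826 and 1220 in the shp53 coculture against 984 and 1263 in the shp53 mix. The shTop1 mix arrays were close together and the replicates of the other groups farther apart, and the cocultures overlapped the mixes over both knockdowns. The mean difference of -0.18 ± 0.16 on the log2 scale (SE, limma adjusted p = 0.676) was -0.03 without shp53 coculture replicate 1. Between the knockdowns, Bmp4 was 1.26 times as high in the shTop1 as in the shp53 samples (log2 difference 0.33 ± 0.16, SE, limma adjusted p = 0.999), and leaving out 1 array that difference ranged from 0.19 to 0.48.

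Tdgf1, whose product anchors Nodal to its receptors, lay above the 99th percentile of all probe sets. Its signals were 24455 and 20741 in the shTop1 coculture against 19070 and 18692 in the shTop1 mix, and 20061 and 20915 in the shp53 coculture against 21983 and 19638 in the shp53 mix. The shTop1 arrays did not overlap, and the shp53 arrays did. The mean log2 difference was 0.06 ± 0.07 (SE, limma adjusted p = 0.769), with an unadjusted 95% interval from -0.11 to 0.22, the narrowest of the 10 members. The value depended on the scaling: it was 0.12 with the authors' scaling alone and 0.17 with median centring, and with shTop1 these gave 0.25 and 0.31, against 0.10 after quantile normalization.

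Lefty1, a secreted Nodal antagonist and a direct target of Nodal signalling, had signals of 2541 and 2958 in the shTop1 coculture against 3384 and 3377 in the shTop1 mix. The shp53 samples had 2613 and 3268 in the coculture against 3273 and 3645 in the mix. On the deposited scale every coculture array was below every mix, the nearest pair by 3268 against 3273, and after quantile normalization that pair overlapped. The log2 difference was -0.27 ± 0.11 (SE), a ratio of 0.829, and did not pass (limma adjusted p = 0.414). It was -0.30 with shTop1 and -0.25 with shp53. Without shp53 coculture replicate 1 the mean was -0.19 and the shp53 value -0.071, and without shTop1 coculture replicate 1 the shTop1 value was -0.19.

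Lefty2, its close paralog, had signals of 973 and 614 in the shTop1 coculture against 931 and 878 in the shTop1 mix, and 530 and 899 in the shp53 coculture against 1008 and 997 in the shp53 mix. The mixes were tight, and in each coculture 1 array was near them and the other far below. The log2 difference was -0.37 ± 0.22 (SE, limma adjusted p = 0.547), the most negative of the 10, with an unadjusted 95% interval from -0.91 to 0.17. It was -0.18 without shp53 coculture replicate 1 and -0.55 without shTop1 coculture replicate 1. Lefty1 and Lefty2 have similar sequences, and how far each probe set also binds the other transcript was not tested.

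Smad6, an inhibitory Smad that blocks BMP signalling and is itself a BMP target, had signals of 131 and 162 in the shTop1 coculture against 93.3 and 116 in the shTop1 mix. With shp53 the coculture arrays had 126 and 172 and the mix arrays 102 and 109. Each coculture array was above each mix array in both knockdowns. The log2 difference was 0.48 ± 0.13 (SE) in the mean of both knockdowns, with an unadjusted 95% interval from 0.16 to 0.80, and it was 0.48 ± 0.18 with shTop1 and 0.48 ± 0.18 with shp53. It did not pass over all genes (limma adjusted p = 0.345), where it stood 404th by p. Leaving out 1 array the mean difference ranged from 0.38 to 0.58, it was 0.54 without shTop1 coculture replicate 1, and it stayed above 0 in all 18 alternative settings (0.36 to 0.58, limma adjusted p 0.222 to 0.602). Leaving out replicate 2 of the shp53 coculture put the shp53 value at 0.27, and leaving out its replicate 1 put it at 0.69. The shTop1 value ran from 0.35 to 0.61. Its only probe set lay at the 60.0th percentile of mean signal. The summed fibroblast and primitive endoderm markers given above were also higher in every coculture array than in every mix, and their part in the Smad6 difference was not tested.

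The sequence upstream of Smad6 is shown because its mean difference had the smallest p of the 10 members. RefSeq gives these 250 bases before the start of the gene in mouse build GRCm38.p6 (chr9:64022060-64022309, minus strand), printed 5′ to 3′ with any GGCGCC or CAGAC, both known as Smad-binding motifs, in capitals on either strand.
Smad6: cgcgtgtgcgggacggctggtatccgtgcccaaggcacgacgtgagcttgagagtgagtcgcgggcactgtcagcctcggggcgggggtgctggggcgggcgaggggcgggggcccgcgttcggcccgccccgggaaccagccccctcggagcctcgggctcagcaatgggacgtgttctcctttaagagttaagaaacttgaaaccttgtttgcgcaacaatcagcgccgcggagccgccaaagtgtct
The window held neither motif, so it has no capitals, and it held no AATCCACA, a motif of the Nodal effector FoxH1. Of 32851 promoter windows of the same length, 9.59% held GGCGCC, 42.2% CAGAC and 0.718% AATCCACA. The promoters of Lefty1, Lefty2, Smad7 and Id1 were not searched. That of Smad7 was left out by a skip that was not applied to the 32851 windows. Promoters of 6 of the 10 members were searched. Those of Nodal and Bmp4 held none of the 3 motifs, and that of Tdgf1 held 1 CAGAC.

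Smad7, the inhibitory Smad that acts on both branches, had a difference opposite in sign to that of Smad6. Its signals were 1228 and 914 in the shTop1 coculture against 1282 and 1263 in the shTop1 mix, and 925 and 1023 in the shp53 coculture against 1202 and 1169 in the shp53 mix. Of the coculture arrays 3 were below all mixes, while shTop1 coculture replicate 1, at 1228, was within the range of the mixes. The log2 difference was -0.27 ± 0.12 (SE, limma adjusted p = 0.448), and it was -0.38 without that array and -0.15 without shTop1 coculture replicate 2. The second Smad7 probe set had signals of 338 and 222 in the shTop1 coculture against 377 and 436 in the shTop1 mix, and 227 and 217 in the shp53 coculture against 336 and 246 in the shp53 mix. Its log2 difference was -0.43 ± 0.17 (SE, limma adjusted p = 0.462 over all probe sets), so both probe sets were lower in coculture within each knockdown.

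**Figure D2:**
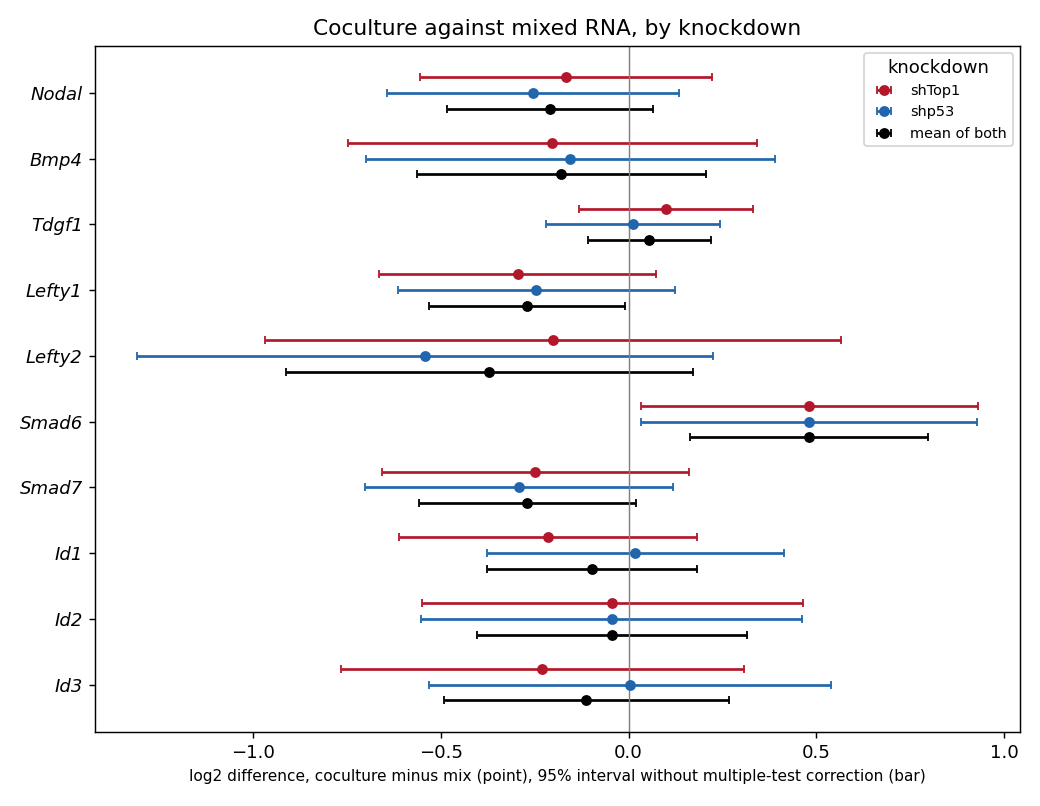
Log2 difference, coculture minus mix (horizontal axis), for each gene with shTop1, with shp53 and in the mean of both, with the unadjusted 95% interval from limma. Smad6 is at 0.48 with shTop1 and 0.48 with shp53, each with a wide interval, and in the mean of both the intervals of Smad6 and Lefty1 leave out 0.

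The Id genes, targets of BMP signalling, had mean log2 differences from -0.11 to -0.04 by their brightest probe sets. A second Id2 probe set was at 0.25, and with shTop1 Id1 and Id3 were at -0.21 and -0.23. Id1 had signals of 1088 and 1277 in the shTop1 coculture against 1369 and 1412 in the shTop1 mix, and 1219 and 1136 in the shp53 coculture against 979 and 1360 in the shp53 mix. The shTop1 arrays did not overlap and the shp53 mix arrays lay on either side of the coculture. The difference was -0.21 ± 0.16 with shTop1 and 0.02 ± 0.16 with shp53 (log2, SE), and -0.10 ± 0.11 in the mean (limma adjusted p = 0.763).

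Id3 had signals of 237 and 164 in the shTop1 coculture against 242 and 244 in the shTop1 mix, and 136 and 179 in the shp53 coculture against 144 and 177 in the shp53 mix. In the shTop1 coculture 1 array was at the level of the mix and the other at the level of the shp53 samples. The log2 difference between coculture and mix was -0.11 ± 0.16 (SE, limma adjusted p = 0.800). Between the knockdowns Id3 differed more: it was 1.39 times as high in the shTop1 as in the shp53 samples over both conditions (log2 0.48 ± 0.16, SE, limma adjusted p = 0.999). At an unadjusted p under 0.05 it was the 1 member of 10 in that comparison, against 2.4% of all genes higher and 2.29% lower, with 0 members or genes passing after adjustment. The arrays of 0 members were free of overlap between the knockdowns (background 1.02% higher and 1.07% lower), and for Id3 3 of the 4 shTop1 arrays were above all shp53 arrays.

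Id2 was read by 3 probe sets that did not move alike. The brightest had signals of 1027 and 844 in the shTop1 coculture against 892 and 1067 in the shTop1 mix, and 1024 and 712 in the shp53 coculture against 902 and 854 in the shp53 mix. These overlapped in both knockdowns, with a log2 difference of -0.04 ± 0.15 (SE, limma adjusted p = 0.925). The second probe set had 456 and 419 in the shTop1 coculture against 384 and 404 in the shTop1 mix, and 466 and 419 in the shp53 coculture against 295 and 415 in the shp53 mix. There every coculture array was above every mix, the nearest pair by 419 against 415, with a log2 difference of 0.25 ± 0.12 (SE, limma adjusted p = 0.523 over all probe sets). The dimmest had 36.9 to 79.4 in the cocultures and 37.1 to 79.6 in the mixes. The sign of the Id2 difference thus depended on the probe set.

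**Figure D3:**
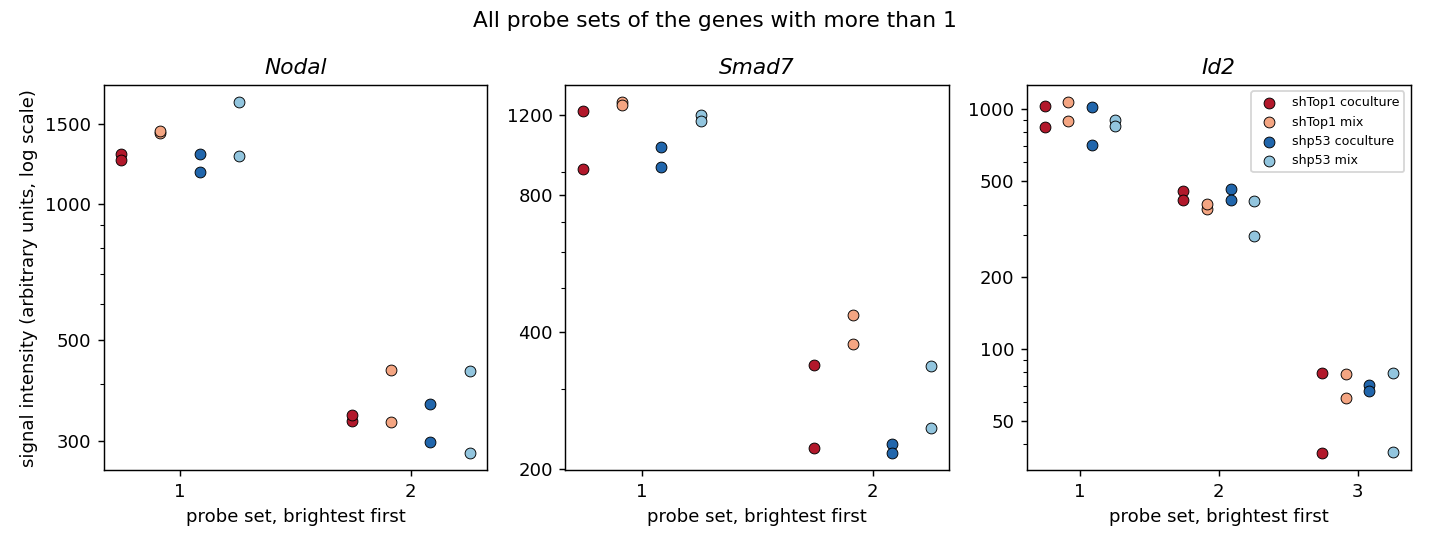
Signal intensity (vertical axes, arbitrary units, log scale) on each array of all probe sets of Nodal, Smad7 and Id2, the brightest first (horizontal axes), by group. Both Smad7 probe sets are lower in coculture within each knockdown, while for Id2 the brightest overlaps and the next lies at 419 to 466 in the cocultures and 295 to 415 in the mixes.

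The upstream windows of Id2 and Id3 are shown beside that of Smad6 because these genes are BMP targets as well. They are the 250 bases before each start in RefSeq's GRCm38.p6 (chr12:25096093-25096342, minus strand, and chr4:136143572-136143821, plus strand), with GGCGCC and CAGAC on either strand in capitals.
Id2: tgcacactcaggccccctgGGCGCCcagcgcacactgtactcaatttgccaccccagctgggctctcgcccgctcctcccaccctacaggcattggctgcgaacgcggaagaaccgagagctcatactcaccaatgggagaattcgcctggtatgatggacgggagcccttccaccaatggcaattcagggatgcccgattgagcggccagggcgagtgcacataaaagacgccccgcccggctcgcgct
Id3: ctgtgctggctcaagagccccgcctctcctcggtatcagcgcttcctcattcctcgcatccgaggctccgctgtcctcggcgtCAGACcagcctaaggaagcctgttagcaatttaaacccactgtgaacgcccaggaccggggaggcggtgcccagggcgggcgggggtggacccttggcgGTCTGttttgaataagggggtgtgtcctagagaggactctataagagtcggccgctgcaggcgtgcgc
Id2 held 1 GGCGCC, beginning 231 bases before the start, and Id3 held 2 matches to CAGAC, 167 and 68 bases before it. The capitals GTCTG in Id3 are CAGAC on the opposite strand. A match describes the letters and does not show binding.

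Each knockdown was also compared by itself. With shTop1, 8 of 10 members were below 0 (background 44.4%), with a median log2 difference of -0.20 beside 0.03 over all genes, and the arrays of 5 members (Nodal, Lefty1, Bmp4, Smad7 and Id1) did not overlap with coculture below mix, against 16.9% of all genes. Smad6 and Tdgf1 did not overlap in the opposite direction, against 24.5% of all genes. Without shTop1 coculture replicate 2, 5 of 10 members were below 0. With shp53, 6 of 10 were below 0 (background 47%), with a median of -0.10 beside 0.01 over all genes. The arrays of 2 members (Lefty2 and Smad7) did not overlap with coculture below mix (background 17.1%), and those of Smad6 with coculture above mix (background 20.9%). Within a knockdown 0 members passed limma's test (adjusted p from 0.605 with shTop1 and from 0.717 with shp53, background 0% in each), and at an unadjusted p under 0.05 stood Smad6 in both (5.12% of all genes higher and 3.08% lower with shTop1, 3.87% and 2.99% with shp53). The difference between the 2 coculture effects, shTop1 minus shp53, ran from -0.23 for Id3 to 0.34 for Lefty2 on the log2 scale, and 0 members passed (limma adjusted p = 1.00 each, background 0%) or had an unadjusted p under 0.05 (background 2.63% higher and 1.68% lower).

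The wider pathway was described with 94 further genes in 8 roles, of which 89 were named and 76 tested. In the mean coculture comparison 0 of 76 passed over all genes (background 0%). At an unadjusted p under 0.05, 7 were higher and 3 lower, against 7.09% and 4.63% of all genes, and the median log2 difference was 0.05 beside 0.02 over all genes. Of the 76 genes 44 were above 0, against 55.3% of all genes. All coculture arrays lay above all mixes for 4 of 76 genes (background 5.75%) and below all mixes for 2 (background 3.35%).

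Among 13 further ligands tested, the bone morphogenetic protein genes Bmp2 and Bmp7 had the smallest p. Bmp2 had signals of 650 and 668 in the shTop1 coculture against 522 and 495 in the shTop1 mix, and 613 and 604 in the shp53 coculture against 433 and 558 in the shp53 mix. All its coculture arrays were above all mixes, with a log2 difference of 0.34 ± 0.09 (SE, limma adjusted p = 0.345), opposite in sign to Bmp4. Bmp7 had 0.55 ± 0.17 (SE, limma adjusted p = 0.365), with signals of 150 to 218 over the cocultures and 88.9 to 166 over the mixes. With its probe sets averaged the Bmp7 difference was 0.30. The ligands' median was -0.06, with 6 of 13 above 0.

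Of 16 receptors and co-receptors 8 were above 0. Acvr1b, the activin type I receptor that Nodal uses, had a log2 difference of 0.26 ± 0.09 (SE, limma adjusted p = 0.375) and signals of 1501 and 1918 in the shTop1 coculture against 1397 and 1338 in the shTop1 mix, and 1845 and 1863 in the shp53 coculture against 1614 and 1594 in the shp53 mix. Its arrays did not overlap within either knockdown, and with its probe sets averaged the difference was 0.14. Acvrl1, a type I receptor known from blood vessels, was dim. It had 59.2 and 64.8 in the shTop1 coculture against 27.3 and 22.7 in the shTop1 mix, while the shp53 coculture had 32.6 and 65.1 against 52.1 and 50.1 in the shp53 mix. Its coculture effect was 0.96 ± 0.22 with shTop1 and -0.01 ± 0.22 with shp53 (log2, SE), and the difference of 0.97 ± 0.31 did not pass (limma adjusted p = 1.00). With a pseudocount of 64 its mean difference of 0.47 was 0.26.

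Among 8 signal-transducing Smads and their partners, Zfp423, a zinc finger partner of BMP Smads, had signals of 427 and 462 in the shTop1 coculture against 568 and 560 in the shTop1 mix, and 388 and 484 in the shp53 coculture against 513 and 587 in the shp53 mix. All its coculture arrays were below all mixes, with a log2 difference of -0.32 ± 0.10 (SE, limma adjusted p = 0.363). Foxh1, the DNA-binding partner of Smad2 in Nodal signalling, had 0.21 ± 0.09 (SE, limma adjusted p = 0.440), and 0.10 with its probe sets averaged. Of 10 extracellular antagonists and modulators, Fst, which encodes the activin antagonist follistatin, had -0.52 ± 0.22 (SE, limma adjusted p = 0.442) and Twsg1, a BMP-binding modulator, 0.22 ± 0.09 (SE, limma adjusted p = 0.418). Without shTop1 coculture replicate 2 Fst had -0.28, and with the mean of all its probe sets Twsg1 had -0.024. Intracellular regulators lay above 0 in 12 of 14 cases (background 55.3%), with a median of 0.08 beside 0.02 over all genes. At an unadjusted limma p under 0.05 stood 1 of the 14, higher, against 7.09% of all genes. The regulators with the smallest p were Tgif2 and Smurf1. Tgif2, a corepressor of Smads, had 0.24 ± 0.09 (SE, limma adjusted p = 0.405), with all coculture arrays above the mixes. Smurf1, a ubiquitin ligase for BMP Smads, had 0.32 ± 0.14 (SE, limma adjusted p = 0.448). Smurf1 was at 0.20 without shTop1 coculture replicate 2.

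**Figure D4:**
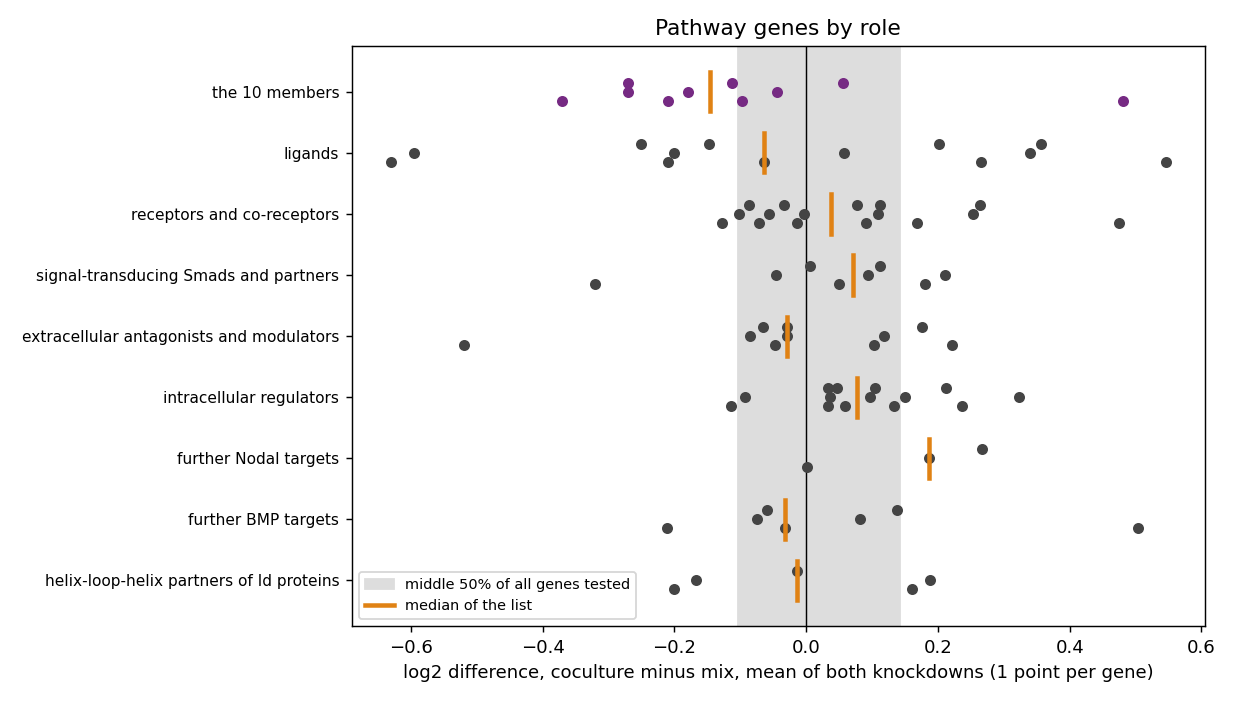
Log2 difference, coculture minus mix, in the mean of both knockdowns (horizontal axis) for each tested gene (points) by role, with the median of each list (orange line) and the middle 50% of all genes tested (grey band). The 10 members have a median of -0.15, with Smad6 alone at 0.48, and the further lists have medians from -0.06 to 0.19.

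Of 9 further Nodal targets 3 were tested, all of them above 0, though Eomes only at 0.0013 ± 0.12 (log2, SE, limma adjusted p = 0.997). Eomes had opposite signs by knockdown, 0.18 with shTop1 and -0.18 with shp53. Mixl1, a mesendoderm gene, had 0.19 ± 0.12 and Foxa2, an endoderm factor, 0.27 ± 0.13 (log2, SE, limma adjusted p = 0.576 and 0.467). Mixl1 had opposite signs by knockdown, -0.13 with shTop1 and 0.51 with shp53, and its mean was 0.082 without shp53 coculture replicate 1. Foxa2 was 0.14 without shp53 mix replicate 2. Of 10 further BMP targets 7 were tested. Gata2, a transcription factor of blood and trophoblast, had signals of 241 and 263 in the shTop1 coculture against 159 and 152 in the shTop1 mix, and 236 and 258 in the shp53 coculture against 205 and 191 in the shp53 mix. Its arrays did not overlap in either knockdown and the log2 difference was 0.50 ± 0.07 (SE), the smallest p of the 76 genes, but it did not pass (limma adjusted p = 0.282). The summed trophectoderm markers given above were also higher in every coculture array than in every mix, and their part here was not tested. Of the 4 trophectoderm markers tested 3 were above 0, while Cdx2 was at -0.03 and its arrays overlapped. Id4, the fourth Id gene, had 0.14 ± 0.08 (SE, limma adjusted p = 0.531), and 0.043 with its probe sets averaged. Of 5 helix-loop-helix factors tested, which Id proteins bind or are set against, the E-protein genes Tcf4 and Tcf12 had -0.17 ± 0.07 and -0.20 ± 0.11 (log2, SE, limma adjusted p = 0.421 and 0.511). Tcf4 was -0.31 with shTop1 and -0.02 with shp53, and -0.077 in the mean with its probe sets averaged. Tcf12 was -0.10 without shp53 coculture replicate 2.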

How the data were processed

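RNA from 8 samples was measured on Affymetrix arrays with biotin label, per the labels' protocols. The deposited table gives a linear signal intensity for each probe set on each array. Its values show that the authors scaled the arrays alike (each has a mean of about 500.0 once the highest and lowest 2% are removed), and which tool summarised the probes is not given in the labels. Probe sets were named from the platform annotation where it gave 1 symbol, updated by gene identifier. After quantile normalization the deposited intensities were put on a log2 scale with a pseudocount of 16, which understates changes of dim genes. Each gene was read by its brightest probe set and kept at or above the 30th percentile of all probe sets (signal 22.1). limma 3.58.1 (R 4.3.3) fitted 1 mean per group over all 8 arrays (4 residual degrees of freedom), without trend, with two-sided p-values Benjamini-Hochberg adjusted over 14267 genes at a threshold of 0.05. The steps were tested on simulated data in which the changed genes differed by more than any member did here. That test does not show how well smaller differences are found. The number of arrays limits the precision. Members, pathway lists and markers were chosen with earlier results of these data known. Further pathway genes were named by rule: per role the 2 with the smallest p in the mean coculture comparison. Upstream sequences are RefSeq's. Alternatives were a replicate block, median centring, the authors' scaling alone, no filter and one at the 50th percentile, averaging the probe sets that share a gene, testing every probe set, limma's trended and robust variances, pseudocounts of 1 and 64, a fit on the compared groups alone, and leaving out each array.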

Additional observations from a re-analysis of the deposited data

How the results depend on the processing

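When limma used trended and robust variances it called 31 genes in the mean coculture comparison, 3 with shTop1 and 1 with shp53, none of them a member. Every other setting run called 0 in each, and the cause was not tested. No member passed in any setting run. The replicate numbers are shared across groups, but same-numbered arrays did not deviate together (correlations between -0.007 and 0.051 over 6 group pairs). With the replicate block 0 genes were called in each comparison, and the Smad6 difference was 0.48 (limma adjusted p = 0.376). Some signs near 0 changed. With the mean over its probe sets Id2 was 0.077 in the mean of both knockdowns and 0.19 with shp53, and Twsg1 was -0.024. With median centring Id2 was 0.0047 and, with shp53, 0.016. With the authors' scaling alone Id3 was -0.031 and Tdgf1 -0.021 with shp53. Leaving out 1 array, the mean coculture difference ran from -0.21 to 0.010 for Id1, -0.17 to 0.077 for Id2 and -0.24 to 0.016 for Id3. With shTop1 it ran from -0.22 to 0.13 for Id2, -0.49 to 0.027 for Id3 and -0.56 to 0.16 for Lefty2. With shp53 it ran from -0.45 to 0.14 for Bmp4, -0.20 to 0.24 for Id1, -0.29 to 0.20 for Id2, -0.18 to 0.19 for Id3 and -0.052 to 0.072 for Tdgf1. The difference of the coculture effects ran from -0.49 to 0.023 for Id3 and from -0.042 to 0.72 for Lefty2. Members below 0 with shTop1 ranged from 5 to 8.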

Other observations

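For each member the 2 tested genes whose log2 values over the 8 arrays followed it most closely were looked up by Pearson's r, as a description: the arrays share their groups, and with 14267 genes and 8 arrays a high r is easily reached. For Smad6 they were Psma2 (0.970) and Arhgef19 (0.966), for Smad7 Gid8 (0.992) and Tasor (0.989), for Lefty1 Btaf1 (0.976) and Elavl4 (0.964), and for Lefty2 Ripor3 (0.964) and Asf1a (0.964). For Nodal they were Pofut2 (0.947) and Kctd20 (0.947), for Tdgf1 Trp53inp2 (0.970) and Ap2a2 (0.970), and for Bmp4 Zfp428 (0.969) and Rprd1b (0.955). For Id1 they were Calcoco2 (0.970) and Api5 (0.944), for Id2 4930543N07Rik (0.969) and Scpep1 (0.949), and for Id3 Rrp12 (0.965) and Dusp21 (0.942). No member was among the 2 closest of another.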
